A study of Mus musculus with 2 samples.

Results

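The genes described here encode the enzymes that add methyl groups to histone lysines, take them off again, or take acetyl groups off lysines. They were chosen by symbol, as all listed genes whose name begins with Kdm, Kmt, Setd, Hdac or Sirt followed by a number or a letter and number, and 54 of the 17215 genes listed met that rule. There were 18 demethylases (Kdm), 18 methyltransferases (Kmt and Setd), 11 zinc-dependent deacetylases (Hdac) and 7 sirtuins (Sirt). The series concerns how formaldehyde slows osteoblast growth, and its RNA sequencing covers MC3T3-E1, a clonal pre-osteoblast line from mouse calvaria, given 300 µM formaldehyde or 100 µM. Each dose had 1 library, so all values below are single measurements, with no p-value and no replicate error. The length of exposure is not stated in the labels, and cells without formaldehyde were not analysed here. All results come from 1 clonal line grown in serum-containing medium with antibiotics.

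Methyltransferases such as the MLL and SET1 enzymes write marks that lie at active promoters, and others write marks of gene bodies or of silent chromatin. Demethylases remove them by oxidation, either with a flavin (Kdm1a and Kdm1b) or with iron and 2-oxoglutarate (the jumonji enzymes), and formaldehyde is the by-product of both reactions. Zinc-dependent deacetylases work mostly within large co-repressor complexes, whereas sirtuins need NAD and act in nucleus, cytosol and mitochondria. In the osteoblast lineage, deacetylases are known as partners of Runx2, the transcription factor that sets the bone-forming fate.

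Levels are given in FPKM, fragments counted per kilobase of the transcript and per unit of sequencing depth, which can be set against each other between genes because they are per length. Ratios are log2((FPKM at 300 µM + 1)/(FPKM at 100 µM + 1)), so that a negative value means a lower level at 300 µM, and the added 1 understates the difference of low genes. Genes whose 2 values averaged 1 FPKM or more were compared, a filter that 50 of the 54 enzymes passed. Differences of 2-fold or more on this scale are called lower or higher. In bulk RNA, fewer cells of a kind and less RNA per cell cannot be told apart.

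Facts of the whole libraries bear on every value below. About 19000000 fragments were read at 300 µM and 18300000 at 100 µM, estimated from the steps of low values, and 1 FPKM was reached by 9332 genes at 300 µM and by 10206 at 100 µM. The 100 most abundant genes held 49.4% of the summed FPKM at 300 µM and 37.7% at 100 µM, and the median ratio of all 10123 genes compared was -0.30. All 6 pre-osteoblast markers were listed above 0, with a summed level of 2048.23 FPKM at 300 µM and 2367.54 at 100 µM, most of it Col1a1, with 1714.12 FPKM at 300 µM and 2065.05 at 100 µM, and Spp1, with 312.94 at 300 µM and 253.43 at 100 µM. Runx2 was at 3.6 FPKM at 300 µM and 7.99 at 100 µM, and Dlx5, an osteoblast homeobox factor, at 7.04 at 300 µM and 32.88 at 100 µM. Sp7 was at 9.47 FPKM at 300 µM and 7.21 at 100 µM, and Alpl, the bone alkaline phosphatase, at 1.06 at 300 µM and 0.98 at 100 µM. Markers of adipocytes, blood cells, muscle, endothelium and epithelium summed to 0.06 to 3.04 FPKM per type and dose. Of 3 cartilage markers, Col2a1 was at 350.11 FPKM at 300 µM and 321.70 at 100 µM, Sox9 at 9.78 at 300 µM and 61.44 at 100 µM, and Acan at 0 in both libraries, and the part of such cells in the results was not tested.

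Transcripts of the methyltransferases and demethylases were widely lower at 300 µM, and those of the deacetylases were not. Of the 50 enzymes compared, 24 were at least 2-fold lower at 300 µM and 2 were at least 2-fold higher. Over all genes compared, 29.8% were lower and 6.09% higher by the same size. Among the methyltransferases 12 of 17 were lower and 0 higher, with a median ratio of -2.04 and a range of -2.91 to 0.82. Among the demethylases 10 of 17 were lower and 0 higher, with a median of -1.17 and a range of -3.04 to 0.16. Of 9 deacetylases 0 were lower and 2 higher, with a range of -0.40 to 2.10 and a median of 0.33, which turned to -0.04 when the libraries were scaled to equal summed FPKM. The 7 sirtuins lay between these classes, with 2 lower, 0 higher and a median of -0.34, close to the median of all genes.

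**Figure D1:**
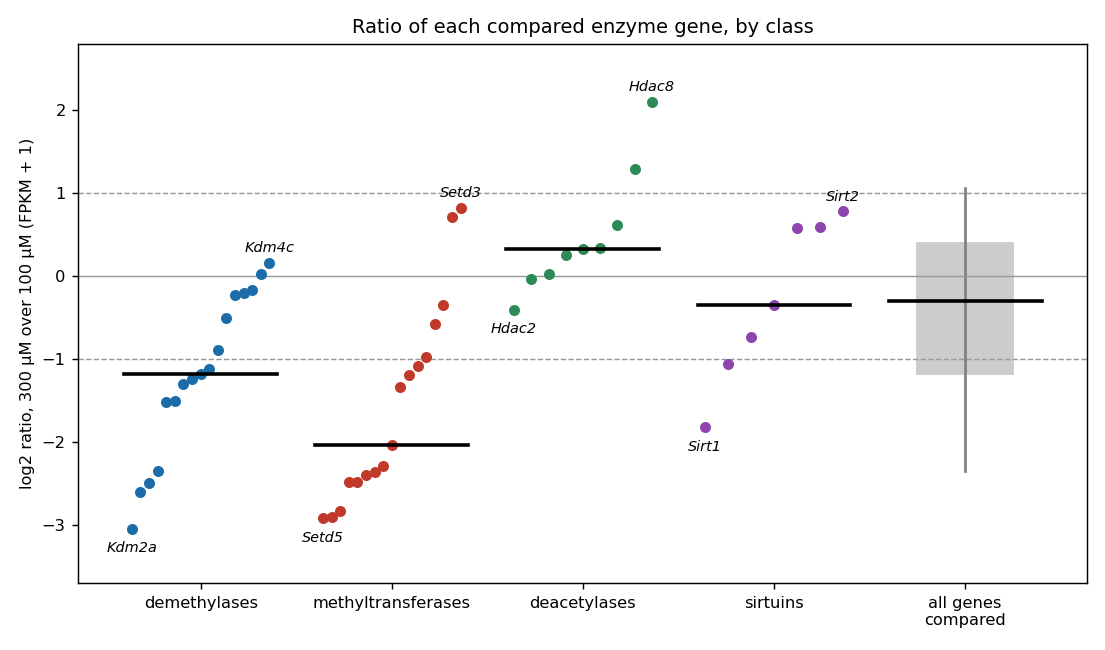
Log2 ratio of 300 µM over 100 µM (FPKM + 1) for each of the 50 compared enzymes, sorted within its class, with the class median as a black bar and dashed lines at 2-fold. The grey box and line give the 25th to 75th and the 5th to 95th percentile of all 10123 genes compared. Of the 24 lower enzymes 12 are methyltransferases and 10 demethylases, and the deacetylases lie at -0.40 or above.

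The make-up of the enzyme transcripts differed between the libraries. Summed over each class, the methyltransferases had 84.6 FPKM at 300 µM and 191.8 at 100 µM, and the demethylases 59.5 FPKM at 300 µM and 168.5 at 100 µM. The deacetylases summed to 267.3 FPKM at 300 µM and 246.1 at 100 µM, and the sirtuins to 76.4 at 300 µM and 75.4 at 100 µM. These sums were not scaled for the total over all genes, which was 691521.4 FPKM at 300 µM and 532943.9 at 100 µM. The deacetylases thus held 54.8% of the enzymes' summed FPKM at 300 µM and 36.1% at 100 µM, against 12.2% at 300 µM and 24.7% at 100 µM for the demethylases. Of the 54 enzymes, 41 reached 1 FPKM at 300 µM and 49 at 100 µM. Hdac1 and Hdac2, the catalytic pair of the Sin3, NuRD and CoREST complexes, had the highest level of all the enzymes at either dose.

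**Figure D2:**
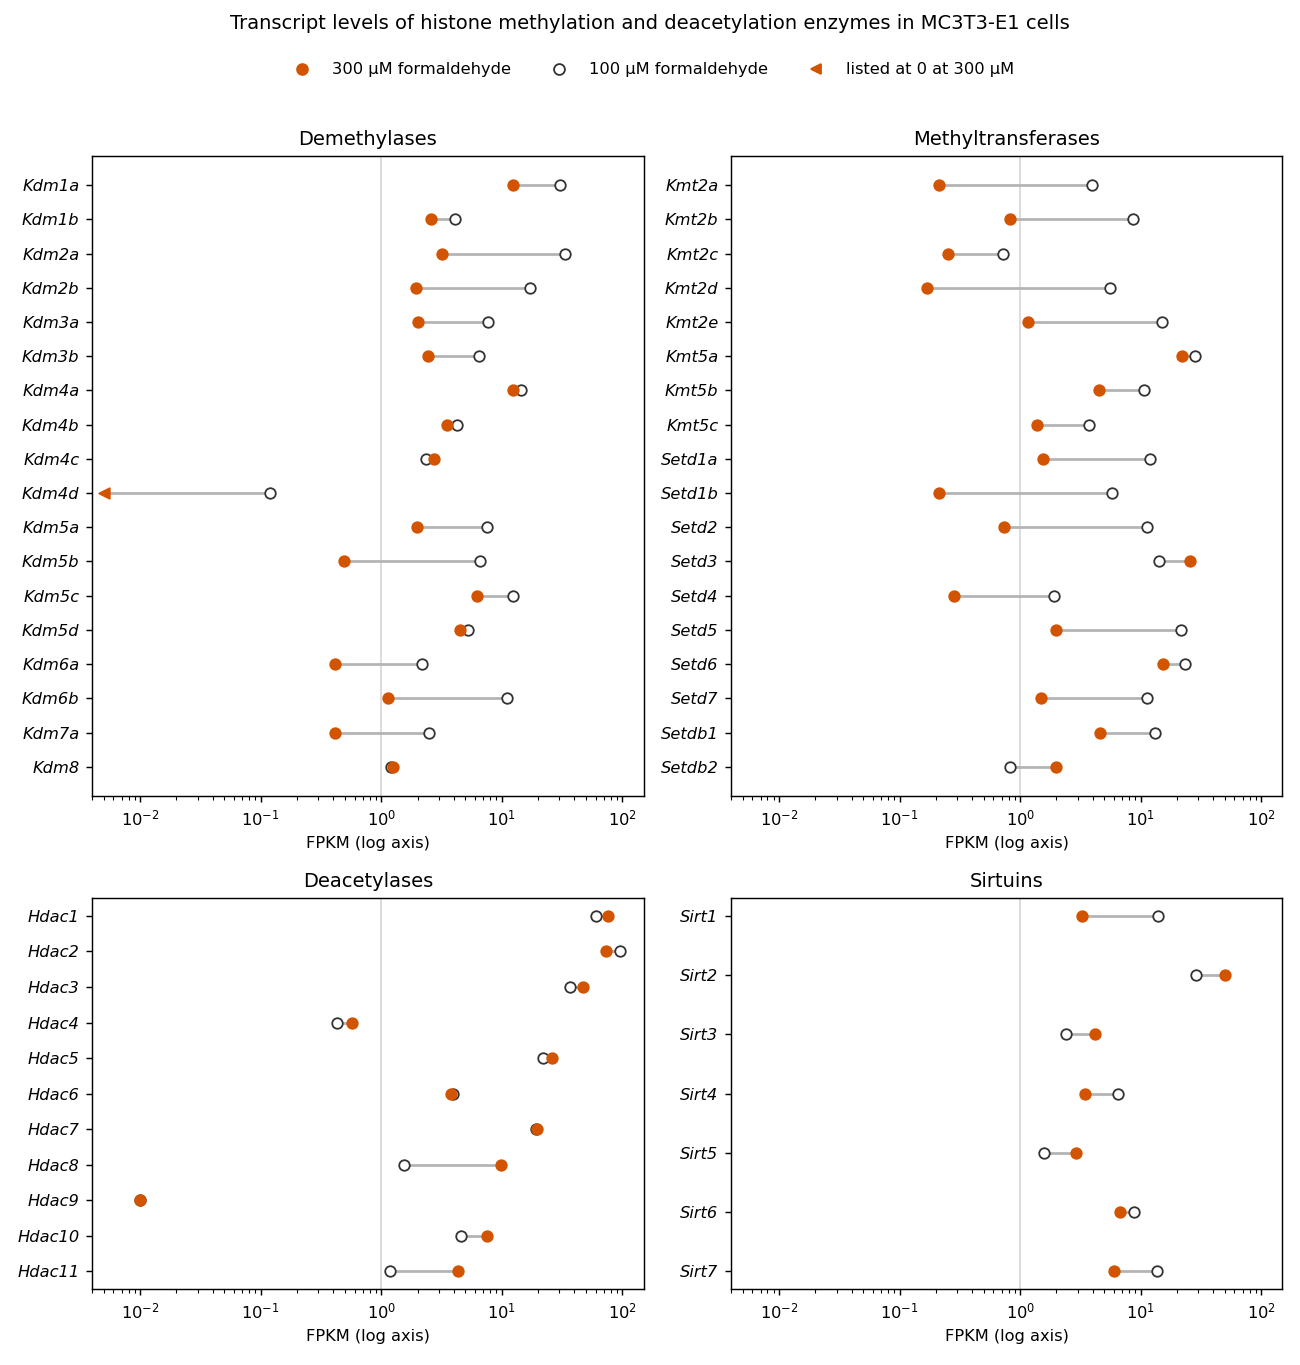
FPKM (log axis) of each of the 54 enzymes at 300 µM (filled) and 100 µM (open), 1 library per dose, in 4 panels by class. The long lines to the left are demethylases and methyltransferases such as Kdm2a, Kmt2d and Setd1b, and the long lines to the right are Hdac8 and Hdac11.

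Promoter sequence was looked at for what the enzymes share beyond their names. RefSeq promoters of mouse assembly GRCm38.p6, each from 250 bases before to 50 bases after a start, were found for 43 of the 54 enzymes (59 promoters). The 120 bases that end just before the start are shown for 8 genes that the results turn on. Setd2, Kmt2d and Kdm5b were among the lowest ratios, Sirt1 was the lowest sirtuin, Hdac8 and Hdac11 were the only higher enzymes, and Kdm5c and Kdm5d are the X- and Y-linked copies of 1 demethylase. Each is written 5′ to 3′ on the gene's strand, and capitals mark any of 7 motifs on either strand. These were the GC box with the letters GGGCGG, the core of ETS factor sites with the letters CCGGAAG and the CCAAT box of the factor NF-Y. They also included the NRF1 core with the letters GCATGCGC, the cyclic AMP response element with the letters TGACGTCA, the YY1 core with the letters AAGATGGC and the TATA box with the letters TATAAA. Kdm2a, Kdm6b, Kmt2b, Kmt2e and Setd1b, also among the lowest, are named only.
Setd2 (chr9:110532477-110532596, plus strand): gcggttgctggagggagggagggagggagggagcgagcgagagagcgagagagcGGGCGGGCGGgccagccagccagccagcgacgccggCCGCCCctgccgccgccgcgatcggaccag
Kmt2d (chr15:98871206-98871325, minus strand): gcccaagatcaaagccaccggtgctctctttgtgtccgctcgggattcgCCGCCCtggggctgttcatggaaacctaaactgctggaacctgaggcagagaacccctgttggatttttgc
Kdm5b (chr1:134560058-134560177, plus strand): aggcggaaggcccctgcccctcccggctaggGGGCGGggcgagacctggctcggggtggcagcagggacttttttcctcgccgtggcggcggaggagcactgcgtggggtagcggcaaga
Sirt1 (chr10:63339036-63339155, minus strand): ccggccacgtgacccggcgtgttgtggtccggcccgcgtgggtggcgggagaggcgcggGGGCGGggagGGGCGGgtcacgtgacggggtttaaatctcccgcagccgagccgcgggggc
Hdac8 (chrX:102505159-102505278, minus strand): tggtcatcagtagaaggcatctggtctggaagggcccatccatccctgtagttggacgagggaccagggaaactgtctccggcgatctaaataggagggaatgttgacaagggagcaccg
Hdac11 (chr6:91156695-91156814, plus strand): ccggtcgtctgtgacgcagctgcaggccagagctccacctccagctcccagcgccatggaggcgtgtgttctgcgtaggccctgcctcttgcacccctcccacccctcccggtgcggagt
Kdm5c (chrX:152233107-152233226, plus strand): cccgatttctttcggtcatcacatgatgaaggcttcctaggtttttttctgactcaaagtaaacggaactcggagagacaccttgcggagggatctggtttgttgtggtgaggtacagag
Kdm5d (chrY:897668-897787, plus strand): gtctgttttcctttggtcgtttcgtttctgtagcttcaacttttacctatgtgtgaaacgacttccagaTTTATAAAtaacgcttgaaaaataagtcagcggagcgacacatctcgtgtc

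The promoters of these genes ranged widely in CG content. Of the lower ones shown, Setd2 held 38 CG dinucleotides in its 300 bases, Kmt2d 27, Kdm5b 17 and Sirt1 47. Setd5, also lower (-2.91) but not shown, held 1, and the promoters of Kdm3a, also lower and not shown, held from 0 to 40. The higher Hdac8 held 6 and Hdac11 22, and Kdm5c and Kdm5d, within 2-fold, held 13 and 15. The printed windows of Hdac8, Hdac11 and Kdm5c showed none of the 7 motifs, although both higher enzymes had a CCAAT box elsewhere in their 300 bases. Of the 2 promoters of higher enzymes, 1 also had a GC box and 1 a TATA box. The median CG count was 28, with a range of 0 to 65, over the 23 promoters of lower enzymes and 20 over the 29 promoters of enzymes within 2-fold, against 17 over the 17071 promoters of all listed genes. A GC box, the letters bound by SP and KLF factors, lay in 62.7% of the enzymes' promoters and in 54.4% of those of listed genes. The CCAAT box lay in 26.1% of the promoters of lower enzymes and in 51.7% of those of enzymes within 2-fold, with 37.5% over listed genes. ETS cores lay in 15.3% of the enzymes' promoters, against 13.8% over listed genes, TATA boxes in 5.08%, against 9.32%, NRF1 cores in 3.39%, against 4.18%, YY1 cores in 1.69%, against 3.52%, and the cyclic AMP response element in 0 of 59, against 2.61%. Matches may overlap each other and describe letters only.

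All compared Kmt and Setd enzymes that write H3K4 methylation were lower at 300 µM (names such as H3K4 give the histone and the position of the lysine). Kmt2d, the largest MLL enzyme and a writer at enhancers, had 0.17 FPKM at 300 µM and 5.51 at 100 µM, resting on about 64 reads at 300 µM and 2004 at 100 µM. Setd1b, the catalytic subunit of 1 of the SET1 complexes, had 0.21 FPKM at 300 µM and 5.76 at 100 µM, about 35 reads at 300 µM and 936 at 100 µM. Without the added 1 these levels were 32.4-fold and 27.4-fold lower at 300 µM, the widest gaps among the enzymes compared. Kmt2a, the founding MLL gene, had 0.21 FPKM at 300 µM and 3.97 at 100 µM, and its close relative Kmt2b 0.83 at 300 µM and 8.63 at 100 µM. Setd1a had 1.54 FPKM at 300 µM and 12.05 at 100 µM, but 54% of its 50-base words also occur in the overlapping gene model Gm49388, so its level is uncertain. Kmt2c, the partner of Kmt2d at enhancers, was below the filter at both doses, with 0.25 FPKM at 300 µM and 0.72 at 100 µM. The 6 enzymes together summed to 3.21 FPKM at 300 µM and 36.64 at 100 µM, and all 5 that were compared were lower. Setd7, which mono-methylates H3K4 in vitro and many other proteins, had 1.49 FPKM at 300 µM and 11.17 at 100 µM.

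Of the other methyltransferases, those with long transcripts were also low. Setd2, the enzyme that trimethylates H3K36 along transcribed genes, had 0.74 FPKM at 300 µM and 11.32 at 100 µM, a log2 ratio of -2.82 and about 118 reads at 300 µM and 1734 at 100 µM. Setd5, a chromatin regulator that binds co-repressor complexes, had 1.99 FPKM at 300 µM and 21.52 at 100 µM. Its ratio of -2.91 was the lowest of the class. Kmt2e, an MLL relative with no known catalytic activity, had 1.15 FPKM at 300 µM and 15.06 at 100 µM (-2.90), and 13.3% of its exon bases overlap Srpk2 on the other strand. The counting intervals of these pairs were far apart, for Setd2 from 97.7 to 141.3 reads at 300 µM and from 1653.3 to 1817.6 at 100 µM (exact 95% Poisson), which cover counting error only. Setdb1, which trimethylates H3K9 at silenced repeats, had 4.63 FPKM at 300 µM and 13.16 at 100 µM (-1.33). Setd4, a little-studied member, was called lower on about 10 reads at 300 µM and 64 at 100 µM, the fewest behind any call.

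The enzymes of H4K20 spanned the 2-fold line. Kmt5b, which takes the mono-methylated lysine to higher states, had 4.54 FPKM at 300 µM and 10.72 at 100 µM (-1.08), and its paralogue Kmt5c 1.39 at 300 µM and 3.69 at 100 µM (-0.97), the value closest to the line from inside. Kmt5a, which adds the first methyl group and acts in the cell cycle, had 22.03 FPKM at 300 µM and 28.26 at 100 µM (-0.35). The called enzyme closest to the line was Sirt7, at -1.06, so Kmt5c and Sirt7 differ little although only Sirt7 is called. The methyltransferases furthest in the other direction were Setd3, the actin histidine methyltransferase, with 25.81 FPKM at 300 µM and 14.15 at 100 µM (0.82), and Setdb2, with 2.0 at 300 µM and 0.82 at 100 µM (0.72). Both were within 2-fold, although past it after centring on the median gene (ratios of 1.12 and 1.02), and 37.6% of the words of Setd3 are shared with the gene model Gm14026. Setd6, which methylates the NF-κB subunit RelA, had 15.39 FPKM at 300 µM and 23.43 at 100 µM (-0.58).

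Among the demethylases the H3K36 enzymes Kdm2a and Kdm2b, CXXC proteins that bind unmethylated CpG islands, stood lowest. Kdm2a had 3.18 FPKM at 300 µM and 33.48 at 100 µM, a ratio of -3.04 and the lowest of all the enzymes. At 100 µM it was the most abundant demethylase. Kdm2b, which recruits a variant polycomb complex, had 1.96 FPKM at 300 µM and 16.99 at 100 µM (-2.60), but 12.5% of its words occur in other genes and 12.1% of its exon bases overlap Rnf34 on the other strand. By contrast the Kdm4 enzymes, which remove H3K9 and H3K36 methylation, were within 2-fold. Kdm4a had 12.31 FPKM at 300 µM and 14.34 at 100 µM, Kdm4b 3.54 at 300 µM and 4.29 at 100 µM, and Kdm4c 2.74 at 300 µM and 2.35 at 100 µM. Kdm4d was listed at 0 at 300 µM and at 0.12 FPKM at 100 µM and was not compared.

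The Kdm enzymes that act on H3K27 were all called lower. Uty, the Y-linked copy of Kdm6a, falls outside the symbol rule and had 1.76 FPKM at 300 µM and 1.71 at 100 µM. Kdm6b, the inducible enzyme also known as Jmjd3, had 1.13 FPKM at 300 µM and 10.98 at 100 µM (-2.49). Kdm6a, its X-linked relative Utx, had 0.41 FPKM at 300 µM and 2.18 at 100 µM (-1.17, about 46 reads at 300 µM and 237 at 100 µM). Kdm7a, which acts on H3K9 and H3K27, had 0.41 FPKM at 300 µM and 2.47 at 100 µM (-1.30). The H3K9 enzymes of the Kdm3 pair were both lower. Kdm3a, a hypoxia target, had 2.02 FPKM at 300 µM and 7.65 at 100 µM (-1.52), and Kdm3b 2.44 at 300 µM and 6.44 at 100 µM (-1.11).

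The H3K4 demethylases were split. Kdm1a (Lsd1), the flavin enzyme of the CoREST complex, had 12.34 FPKM at 300 µM and 30.40 at 100 µM (-1.24), and its paralogue Kdm1b 2.58 at 300 µM and 4.08 at 100 µM (-0.50), with 10.1% of its exon bases overlapping Dek on the other strand. Of the Kdm5 family, Kdm5b had 0.49 FPKM at 300 µM and 6.56 at 100 µM (-2.34), and Kdm5a 1.99 at 300 µM and 7.49 at 100 µM (-1.51). The X-linked Kdm5c had 6.19 FPKM at 300 µM and 12.31 at 100 µM (-0.89), and the Y-linked Kdm5d 4.53 at 300 µM and 5.2 at 100 µM (-0.16). Kdm5a and Kdm5b, the autosomal copies, thus passed 2-fold and the sex-linked copies did not, a difference between genes that was not tested. Kdm8, named for a demethylase activity that is disputed, had 1.24 FPKM at 300 µM and 1.20 at 100 µM.

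Writers and erasers can be set side by side by residue. For H3K4, the 6 MLL and SET1 writers fell to 3.21 FPKM at 300 µM, against 36.64 at 100 µM, and the 6 erasers to 28.12 FPKM at 300 µM, against 66.04 at 100 µM. For H3K36, the writer Setd2 had 0.74 FPKM at 300 µM and 11.32 at 100 µM, and the 5 erasers summed to 23.73 at 300 µM and 71.45 at 100 µM. With Nsd1, Nsd2, Nsd3 and Ash1l, which methylate the same residue, 5 writers summed to 20.21 FPKM at 300 µM and 42.73 at 100 µM, a smaller difference (log2 -1.08) than that of the erasers (-1.59). For H3K27 the writers Ezh1 and Ezh2 summed to 23.16 FPKM at 300 µM and 22.15 at 100 µM. The 3 Kdm erasers summed to 1.95 at 300 µM and 15.63 at 100 µM. Uty, with 1.76 FPKM at 300 µM and 1.71 at 100 µM, was not in that sum. Most of the writers' sum was Ezh2, and Ezh1 had 2.31 FPKM at 300 µM and 5.09 at 100 µM (-0.88). The 6 H3K9 writers summed to 78.59 FPKM at 300 µM and 79.81 at 100 µM, most of it Ehmt2, and the 6 erasers to 23.05 at 300 µM and 35.19 at 100 µM. The near-equal sums of the writers hide opposite differences. Setdb1 (-1.33), Suv39h1 (-1.16), Suv39h2 (-1.62) and Ehmt1 (-1.29) were each at least 2-fold lower, while Ehmt2 (0.59) and Setdb2 (0.72) were within 2-fold. With Prdm2 added to these writers the sum was 79.29 FPKM at 300 µM and 92.29 at 100 µM, and with Kdm7a added to the erasers it was 23.46 at 300 µM and 37.66 at 100 µM. These genes were added after their values were seen. These are sums of transcript levels, not scaled to equal summed FPKM, and neither proteins nor marks were measured. The Kdm4 genes were counted for H3K9 and H3K36, and Kdm7a for H3K27 and, in the wider sum, for H3K9.

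**Figure D3:**
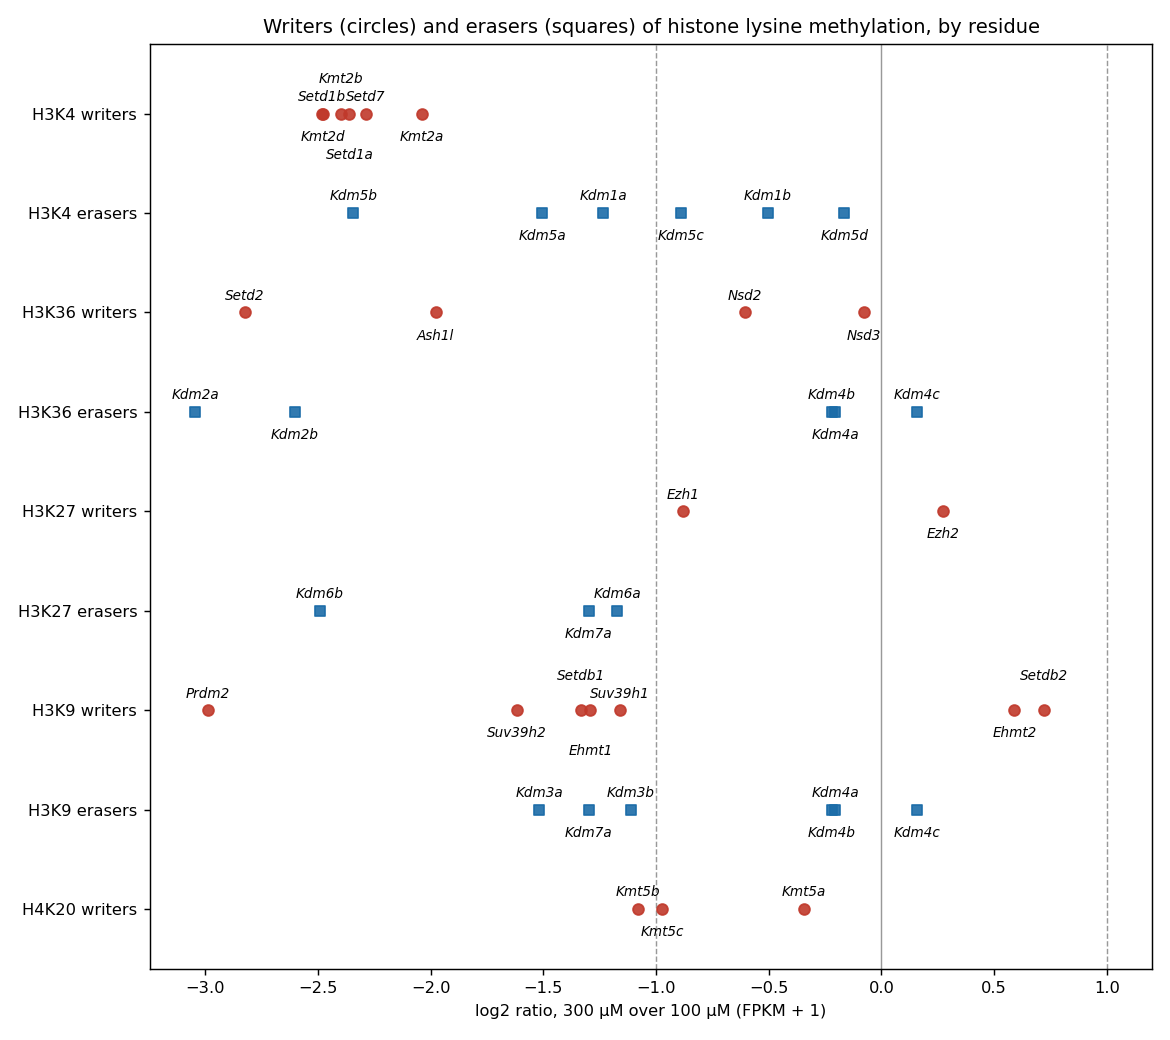
Log2 ratio of 300 µM over 100 µM (FPKM + 1) for compared writers (circles) and erasers (squares) of histone lysine methylation, in rows by residue, with dashed lines at 2-fold. The H3K4 writers shown, all Kmt or Setd genes, lie between -2.48 and -2.04. The 3 H3K27 erasers shown, all Kdm genes, lie left of both H3K27 writers.

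The deacetylases differed from the methylation enzymes in that 0 of 9 were called lower. Class I holds the nuclear enzymes. Hdac1 had 75.51 FPKM at 300 µM and 60.04 at 100 µM (0.33), but 58.7% of its words are shared with the gene model Gm10093, so reads could have been divided between them. Hdac2 had 72.67 FPKM at 300 µM and 96.31 at 100 µM (-0.40), and Hdac3, the enzyme of the NCoR and SMRT complexes, 47.00 at 300 µM and 36.94 at 100 µM (0.34). All 3 were within 2-fold. The fourth class I enzyme, Hdac8, which deacetylates the cohesin subunit Smc3, had 9.84 FPKM at 300 µM and 1.53 at 100 µM. That is 6.43-fold higher at 300 µM (2.10 on the log2 scale with the added 1), on about 363 reads at 300 µM (exact 95% Poisson interval 326.6 to 402.3) and 54 reads at 100 µM (40.6 to 70.5).

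Hdac11, the only class IV enzyme, which removes long fatty acyl groups, was the other enzyme called higher. It had 4.36 FPKM at 300 µM and 1.18 at 100 µM (1.30), on about 220 reads at 300 µM and 57 at 100 µM. Opposite-strand exons of Gm44002 cover 26% of its exon bases, and whether the counting used strand is not stated. The class IIa enzymes, which shuttle between cytoplasm and nucleus and bind MEF2 factors, were detected as Hdac5, with 26.30 FPKM at 300 µM and 21.92 at 100 µM, and Hdac7, with 19.75 at 300 µM and 19.27 at 100 µM. Hdac4, a known repressor of chondrocyte hypertrophy, was at 0.57 FPKM at 300 µM and 0.43 at 100 µM, and Hdac9 at 0.01 in both, so neither was compared. Of class IIb, the tubulin deacetylase Hdac6 had 3.81 FPKM at 300 µM and 3.91 at 100 µM, and the polyamine deacetylase Hdac10 7.5 at 300 µM and 4.55 at 100 µM.

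Among the 7 sirtuins 2 were called lower (28.6%, against 29.8% of all genes), both of them nuclear enzymes. Sirt1, the nuclear enzyme that deacetylates p53 and histones, had 3.26 FPKM at 300 µM and 14.00 at 100 µM (-1.82), about 275 reads at 300 µM and 1138 at 100 µM. Sirt7, an enzyme of the nucleolus, had 6.0 FPKM at 300 µM and 13.60 at 100 µM (-1.06). Sirt6, which acts on H3K9 acetylation, had 6.69 FPKM at 300 µM and 8.74 at 100 µM (-0.34), so that only Sirt1 and Sirt7 passed 2-fold. Sirt2, a mainly cytosolic enzyme, was the most abundant sirtuin, with 49.97 FPKM at 300 µM and 28.65 at 100 µM (0.78, or 1.08 once centred). The mitochondrial sirtuins were all within 2-fold. Sirt3, the main mitochondrial deacetylase, had 4.16 FPKM at 300 µM and 2.41 at 100 µM (34.6% of its exon bases overlap Ric8a on the other strand), Sirt5, a desuccinylase, 2.88 at 300 µM and 1.59 at 100 µM, and Sirt4 3.48 at 300 µM and 6.45 at 100 µM.

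The lower enzymes mostly had long transcripts, and so did lower genes in general. The median transcript was 6.51 kb for the methyltransferases, 5.54 kb for the demethylases, 2.65 kb for the deacetylases and 1.79 kb for the sirtuins, against 2.82 kb over all genes. Over all genes compared, 12.2% were at least 2-fold lower at transcripts of up to 2000 bases, 30% between 2000 and 4000, 42.7% between 4000 and 6000 and 53.0% above 6000. In the same bins 2 of 10, 1 of 10, 5 of 13 and 16 of 17 enzymes were lower. The only long-transcript enzyme not called was Kdm5d. Within the bin above 6000 bases, the enzymes' median ratio was -2.36 and that of all genes -1.06. Across the 50 enzymes the ratio and log2 transcript length had a Spearman rho of -0.70 (Pearson r -0.69), and across 10093 genes of -0.41 (r -0.39), over genes that share the same 2 libraries and are not independent replicates.

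**Figure D4:**
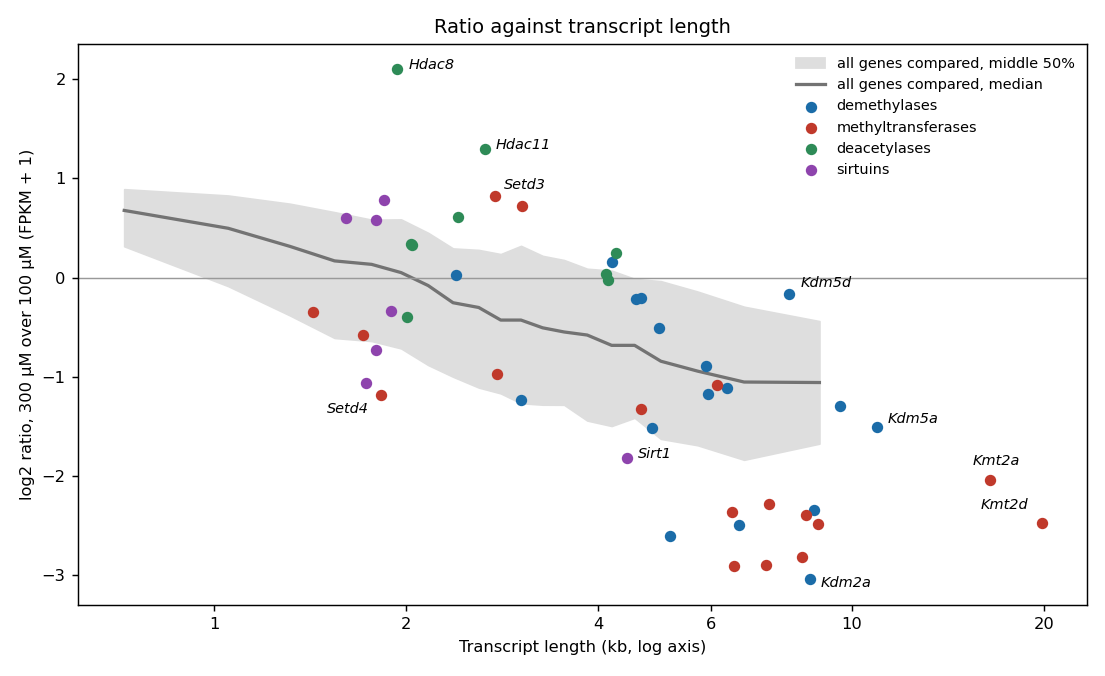
Log2 ratio of 300 µM over 100 µM (FPKM + 1) against transcript length (kb, log axis) for the 50 compared enzymes, coloured by class, with the median and middle 50% of all genes compared in grey. Most enzymes with transcripts over 6 kb lie at -2.04 or lower, and Kdm5d lies above the grey band.

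When a smooth trend of the ratio with transcript length and GC content was taken out, 13 of the 50 enzymes were at least 2-fold below it and 4 at least 2-fold above it, against 16.2% and 14.1% of all genes with a length. Of the methyltransferases, 9 of 17 were below the trend and 2 above, with a median of -1.10. Of the demethylases, 4 of 17 were below and 0 above, and their median of -0.15 was close to the trend. The deacetylases had 0 below and 2 above (median 0.70), and the sirtuins 0 and 0 (median -0.21). Sirt1 and Sirt7, both at -0.995, only just missed the 2-fold line. Kdm5a, Kdm6a, Kdm7a, Kdm3b and Kmt5b, all called lower before, lay within 0.25 of the trend. Setd5, Kdm2a, Kmt2e and Kdm2b, by contrast, were still at -1.96, -1.97, -1.85 and -1.82. After centring on the median gene, 17 enzymes were lower and 5 higher, against 22.3% and 14.5% of all genes.

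Under all of the pseudocounts, filters and scales tried in which they were compared, 12 enzymes were at least 2-fold lower. They were Kdm2a, Kdm2b, Kdm5b, Kdm6b, Kmt2b, Kmt2d, Kmt2e, Setd1a, Setd1b, Setd2, Setd5 and Setd7. Hdac8 was the only enzyme at least 2-fold higher under all of them. How many of all genes met the same joint condition was not counted. In single settings, 16.1% to 40.5% of all genes were lower and 2.55% to 16.7% higher. In 36 enzymes the sign of the ratio was the same throughout.

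Genes that work beside these enzymes but carry other names were taken from 10 lists of 136 listed genes. Of the 118 compared, 45 were at least 2-fold lower (38.1%, against 29.8% of all genes) and 3 higher (2.54%, against 6.09%), with a median ratio of -0.63. Once the length and GC trend was taken out, 25 were lower and 16 higher, with a median of 0.01. Among other lysine methyltransferases 7 of 15 were lower and 1 higher. Prdm2, an H3K9 methyltransferase of the PRDM family, had 0.70 FPKM at 300 µM and 12.48 at 100 µM, and Dot1l, the H3K79 enzyme, 1.34 at 300 µM and 12.88 at 100 µM. Suv39h1, of pericentric heterochromatin, had 4.79 at 300 µM and 11.94 at 100 µM. The higher one was Smyd3, with 3.56 FPKM at 300 µM and 1.03 at 100 µM, chosen here after its values were seen. Once the trend was taken out, 2 of these other lysine methyltransferases were lower and 3 higher. Of 10 other jumonji proteins 4 were lower, among them the ribosomal oxygenase Riox1, with 1.88 FPKM at 300 µM and 18.09 at 100 µM, and the HIF hydroxylase Hif1an, with 1.42 at 300 µM and 13.79 at 100 µM. Jmjd1c (0.43 FPKM at 300 µM and 8.36 at 100 µM) and Jmjd4 (0.62 at 300 µM and 6.5 at 100 µM) were the others, named after their values were seen.

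The partner subunits of the complexes did not all follow their catalytic enzymes. In COMPASS, which holds the MLL and SET1 enzymes, 7 of 13 subunits were lower (53.8%, against 29.8% of all genes) and 0 higher, and 5 were lower and 2 higher once the trend was taken out. Wdr82, which ties SET1 to RNA polymerase II, had 3.0 FPKM at 300 µM and 30.33 at 100 µM, Men1, the MLL partner menin, 7.09 at 300 µM and 26.32 at 100 µM, and Rbbp5 3.48 at 300 µM and 11.53 at 100 µM. The core subunits Ash2l (49.44 FPKM at 300 µM and 32.89 at 100 µM) and Dpy30 (49.93 at 300 µM and 34.57 at 100 µM) were within 2-fold. In polycomb repressive complex 2, which writes H3K27 methylation, 4 of 7 were lower (57.1%), and 3 were lower and 1 higher once the trend was taken out. Aebp2 had 8.40 FPKM at 300 µM and 47.00 at 100 µM, Suz12 4.59 at 300 µM and 26.10 at 100 µM, Mtf2 1.35 at 300 µM and 9.89 at 100 µM, and Eed, named after its values were seen, 12.79 at 300 µM and 29.77 at 100 µM. The catalytic subunit Ezh2, with 20.85 FPKM at 300 µM and 17.06 at 100 µM, was within 2-fold.

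In the deacetylase complexes 12 of 38 subunits were lower and 1 higher, with a median of -0.49, so that the share lower was 31.6%, beside 29.8% of all genes. The lower ones included Mier1, with 2.35 FPKM at 300 µM and 12.57 at 100 µM, and the NuRD subunits Gatad2b (2.63 at 300 µM and 12.61 at 100 µM) and Gatad2a (8.13 at 300 µM and 25.37 at 100 µM). The higher one was Mta3, another NuRD subunit, with 20.96 FPKM at 300 µM and 6.69 at 100 µM. Once the trend was taken out, 3 of the 38 subunits were lower and 6 higher.

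**Figure D5:**
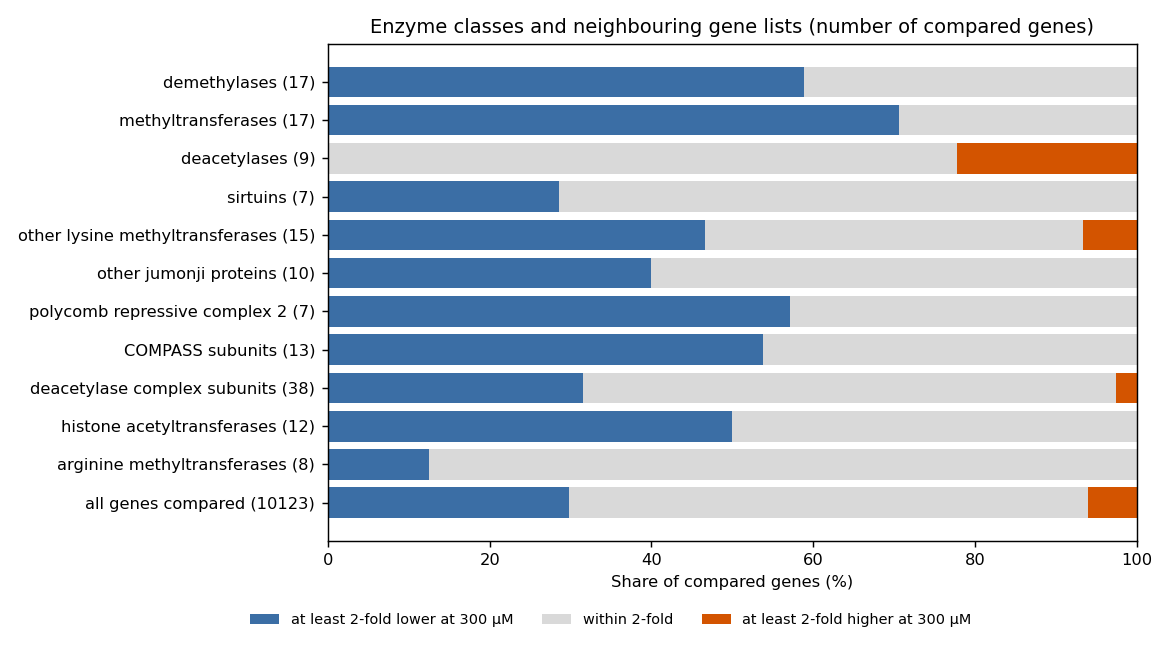
Share of compared genes (%) at least 2-fold lower, within 2-fold and at least 2-fold higher at 300 µM, for the 4 enzyme classes, 7 of the neighbouring lists and all genes compared, with the number of genes in brackets. The methyltransferases have the longest lower bar (70.6%), and the deacetylases have none and 22.2% higher.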

How the data were processed

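RNA was measured in 2 libraries, 1 per dose of formaldehyde (300 µM and 100 µM). The authors deposited 1 table per library with gene-level FPKM rounded to 2 decimals, per the file headers and values. The submitters' processing notes list Bowtie2 and RSEM. Their versions, the genome build, the annotation and the use of strand are not given in the sources used. Since FPKM depends on the library total, abundant transcripts can lower the values of all others, and RSEM divides reads between near-identical copies.

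Each table holds 17215 genes, identified by NCBI gene number. Symbols came from RefSeq (17179) and GENCODE M21 (7), and 29 rows had none. Log2 ratios of FPKM + 1, 300 µM over 100 µM, were taken for 10123 genes averaging 1 FPKM or more, and a size of 2-fold was called. Transcript length and GC content, available for 10093 of them, came from the GENCODE M21 transcript with the longest coding sequence. The trend was a cubic in log2 length and GC content with their interaction. Uniqueness was the share of 50-base words found in other genes' transcripts. FPKM times length of short genes with 1 transcript fell on steps of 52.5 bases at 300 µM and 54.5 at 100 µM, where 60.8% of 153 and 62.0% of 179 low values were within 0.12 reads of a whole number, which gave the depths and the read estimates. The enzymes, the gene lists and the tests were chosen with earlier results of these data known. All enzymes were named, and up to 3 genes of each list in each direction that averaged 5 FPKM or more. The 2-fold calls and the removal of the trend were checked on simulated data, and the depth and read estimates were not. No protein sequences were used. The alternatives were sizes of 1.5-fold and 3-fold, pseudocounts of 0.1 and 5, dropping the filter or raising it to 10 FPKM, centring on the median gene, equal summed FPKM, an unweighted TMM factor (30% of ratios and 5% of levels trimmed at each end) and removal of the trend. Software was matplotlib 3.10.9, scipy 1.17.1, pandas 2.3.3 and numpy 2.4.6 under Python 3.11.15.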

Additional observations from a re-analysis of the deposited data

How the results depend on the processing

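No paired analysis was possible because each dose has 1 library. Centring shifted every ratio up by 0.30, and the median of all genes was -0.67 with equal summed FPKM and 0.04 with the TMM factor. The reported counts were 24 lower and 2 higher enzymes, with class medians of -2.04 (methyltransferases), -1.17 (demethylases), 0.33 (deacetylases) and -0.34 (sirtuins).

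Removal of the length and GC trend left 13 enzymes lower and 4 higher, with medians of -1.10 for methyltransferases, -0.15 for demethylases and 0.70 for deacetylases. It left 4 demethylases and 0 sirtuins lower and 2 methyltransferases higher, with Sirt1 and Sirt7 just short of the line at -0.995. Kdm7a then had a ratio of 0.01 (reported as -1.30), and 25 of the neighbouring genes were lower and 16 higher. Centring gave 17 lower and 5 higher enzymes, medians of -1.74, -0.87, 0.63 and -0.04 (methyltransferases, demethylases, deacetylases, sirtuins), 6 demethylases and 1 sirtuin lower, 2 methyltransferases and 1 sirtuin higher, and 10 neighbouring genes higher. The TMM factor gave 20 lower and 4 higher enzymes, medians of -0.87 for demethylases, 0.71 for deacetylases and 0.00 for sirtuins, 1 sirtuin lower, 1 sirtuin and 1 methyltransferase higher, and 11 neighbouring genes higher. With that factor 22.8% of all genes were lower and 16.7% higher. Equal summed FPKM gave medians of -2.70, -1.62, -0.04 and -0.70 in the same order of classes. The direction of the deacetylases' median thus depends on the scale.

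A pseudocount of 5 left 14 enzymes lower and 1 higher, with medians of -0.92 for methyltransferases and -0.62 for demethylases, 5 demethylases and 1 sirtuin lower, 1 deacetylase higher, and 25 neighbouring genes lower and 1 higher. It left 16.1% of all genes lower and 2.55% higher. A pseudocount of 0.1 gave the methyltransferases a median of -2.83 and 1 higher, and 5 neighbouring genes higher, with 8.23% of all genes higher. With no filter the methyltransferases' median was -1.68. With a mean of at least 10 FPKM, which kept 13 enzymes, 3 were lower and 0 higher, among them 2 demethylases, 1 methyltransferase and 0 sirtuins lower and 0 deacetylases higher. The medians were then -0.46 for methyltransferases and 0.78 for sirtuins, and 16 neighbouring genes were lower. Of the 5340 genes compared at that filter, 21.4% were lower and 6.7% higher. At 1.5-fold 7 of 50 enzymes were higher, 2 of them methyltransferases and 2 sirtuins, and 13 neighbouring genes. Over all genes 18.8% were higher by 1.5-fold. At 3-fold 14 enzymes were lower and 1 higher, among them 4 demethylases and 1 sirtuin lower and 1 deacetylase higher, and 27 neighbouring genes were lower and 0 higher. Over all genes 16.3% were lower and 1.22% higher by 3-fold. The causes of the changes with scale, pseudocount and filter were not tested.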

Other observations

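The remaining lists of neighbouring genes, already part of the pooled count above, are described here list by list. Of 12 histone acetyltransferases, the writers opposite to the deacetylases, 6 were at least 2-fold lower at 300 µM and 0 higher, where 29.8% of all genes were lower and 6.09% higher. Once the length and GC trend was taken out, 4 were lower and 2 higher. Ep300, a co-activator of many transcription factors, had 0.72 FPKM at 300 µM and 11.57 at 100 µM, Kat6a 0.71 at 300 µM and 10.06 at 100 µM, and Kat14 1.86 at 300 µM and 13.18 at 100 µM. Hat1, which acetylates newly made histone H4, had 63.15 FPKM at 300 µM and 31.54 at 100 µM, just within 2-fold (0.98). Of 8 arginine methyltransferases 1 was lower (12.5%), Prmt6, with 3.23 FPKM at 300 µM and 11.87 at 100 µM, and the main enzyme Prmt1 had 169.69 at 300 µM and 110.62 at 100 µM. Of the MEF2 factors that class IIa deacetylases bind, Mef2d had 4.29 FPKM at 300 µM and 16.12 at 100 µM, and was the only lower one of 2 compared.

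Of 7 genes listed with the methyl donor cycle 2 were lower (28.6%, against 29.8% of all genes), with a median ratio of -0.71. They were Mat2a, which makes S-adenosylmethionine, with 19.04 FPKM at 300 µM and 71.07 at 100 µM, and Ahcyl1, with 41.16 at 300 µM and 99.67 at 100 µM. Of 8 enzymes of NAD salvage and use 1 was lower and 1 higher (12.5% each), with a median ratio of -0.23. The higher one was Nnmt, which methylates nicotinamide, with 22.44 FPKM at 300 µM and 10.18 at 100 µM. The lower one was Nmnat1, a nuclear NAD synthase, with 0.27 FPKM at 300 µM and 3.61 at 100 µM, named after its values were seen. Nampt, the rate-limiting enzyme of NAD salvage, had 5.49 FPKM at 300 µM and 5.45 at 100 µM. On the sex chromosomes, Kdm6a on X had 0.41 FPKM at 300 µM and 2.18 at 100 µM, and its Y-linked copy Uty 1.76 at 300 µM and 1.71 at 100 µM.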
